A study of Mus musculus with 10 samples.

Results

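The autophagy genes described here are the 42 genes, of 12575 in a table of CPM from mouse cerebral cortex RNA, whose symbols belong to the Atg, Ulk, Wipi, Map1lc3 and Gabarap families or to a fixed set of autophagy complex members, cargo receptors and transcription factors. They were chosen by name and not by their values, and each of them was above 1 CPM (the reads of a gene scaled to the total reads of its library) in all 10 libraries. The libraries came from 5 Cre- mice and 5 BMAL1 aKO mice, which the labels give as C57BL/6 at 4 months of age. All animals carried Bmal1 fl/fl and received tamoxifen, and the BMAL1 aKO mice also carried Aldh1l1-CreERT2, an inducible Cre under an astrocyte promoter, so that Bmal1 (gene symbol Arntl), the core activator of the circadian clock, was deleted in astrocytes. The controls were Cre- littermates of mixed sex, and they lacked the Cre transgene but not the drug. The paper describes fewer BMAL1 aKO mice for the sequencing than the labels list, without saying which, and an older age, so all labelled libraries were used, and values without BMAL1 aKO replicate 3, the library whose omission raised the number of calls most, are given beside them.

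Macroautophagy wraps cytoplasm and organelles in a double membrane that is then delivered to lysosomes. A kinase complex built on ULK1 starts the process, a phosphatidylinositol 3-kinase complex marks the membrane, ATG9 and ATG2 proteins supply it with lipid, and conjugation enzymes attach the small ATG8 proteins (LC3 and GABARAP) to it, where cargo receptors bind. MiT/TFE transcription factors switch on many lysosomal and autophagy genes, and the abundance of a transcript does not measure the flux of material through the pathway. The comparison of BMAL1 aKO with Cre- cortex asks whether the genes of any of these steps differed in level once the astrocyte clock was removed. RNA was taken from whole tissue, so fewer cells of a type and less RNA per cell cannot be told apart.

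BMAL1 acts at E-boxes, of which the canonical form is CACGTG, a sequence that reads the same on both strands and was therefore searched once. The windows below show where it lies near the listed start sites of autophagy genes. They were read from the RefSeq promoter table (GRCm38.p6), which covers 250 bases before to 50 bases after each start site. The table held 36 of the 42 genes, in 45 windows. CACGTG was found in the windows of 5 of the 36 genes (13.9%), beside 11.8% of the 9725 tested genes with a window and 8.09% of all 27025 genes in the table. Capitals mark CACGTG, each sequence runs 5′ to 3′ on the strand of the gene, and the words before the colon give the gene, its position and its strand.
Atg7, an E1-like activating enzyme, chr6:114670942-114670991, plus strand: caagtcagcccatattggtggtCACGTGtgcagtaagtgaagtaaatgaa
Atg5, part of the ATG8-attaching complex, chr10:44268303-44268352, plus strand: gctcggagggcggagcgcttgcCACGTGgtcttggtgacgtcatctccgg
Atg3, an E2-like enzyme, chr16:45158713-45158785, plus strand: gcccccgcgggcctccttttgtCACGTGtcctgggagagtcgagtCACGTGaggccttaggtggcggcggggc
Atg14, the autophagy subunit of the lipid kinase, chr14:47568408-47568457, minus strand: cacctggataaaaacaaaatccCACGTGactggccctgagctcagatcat
Tbk1, a kinase of cargo receptors, chr10:121586767-121586811, minus strand: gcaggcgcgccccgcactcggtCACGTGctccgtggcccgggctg
Distances are from the start site of the window shown. Those of Atg7 and Atg14 lie inside the annotated genes (chr6:114643097-114860614 and chr14:47540893-47570649) and not at their outermost start. The hexamer began 132 bases before the start site in Atg7, 94 and 71 bases before it in Atg3, 14 bases before it in Atg5 and 1 base before it in Atg14. In Tbk1 it began 5 bases after the start site. A match describes the letters of a window and is not a bound site, and the share of genes with a match was close to that of the tested genes. The genes without an entry in the table are Map1lc3a, Becn1, Pik3c3, Atg16l1, Atg12 and Rb1cc1.

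Libraries held 21844770 to 48295715 reads in Cre- and 23127338 to 47964460 reads in BMAL1 aKO mice. Arntl was at 31.9 to 37.1 CPM in Cre- and at 31.1 to 38.8 CPM in BMAL1 aKO libraries (log2 fold change 0.01, adjusted p = 0.932, limma), which does not test the labels, since the whole gene was counted in tissue with many cells outside the deletion. Fabp7, a fatty acid binding protein of astrocytes and progenitors, was higher in BMAL1 aKO by 3.53 on the log2 scale (adjusted p = 3.06e-06, limma). Gfap, which the paper also names as a marker of the knockout state, was at 0.66 (adjusted p = 0.123) and was not called. The measured markers of all cell types listed were above 0 in each library. The summed level of 8 astrocyte markers was 5375 to 6974 CPM in Cre- and 6590 to 8055 CPM in BMAL1 aKO libraries. These ranges overlapped, and 1 of the 8 was called higher. Neuronal (6171 to 7635 against 6264 to 7767 CPM), oligodendrocyte, oligodendrocyte precursor, microglial and vascular markers also overlapped, with 0 genes called. Striatal markers ran from 509 to 2146 CPM in Cre- and from 740 to 1293 CPM in BMAL1 aKO libraries, and choroid plexus markers from 17.97 to 929 and from 13.8 to 1061 CPM. The part of these differences in the results was not tested.

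None of the 42 autophagy genes was called different between BMAL1 aKO and Cre- cortex at an adjusted p of 0.1 in limma over all 12573 tested genes. Over all tested genes, 36 were called higher (0.286%) and 6 lower (0.0477%), or 0.334% in all. At an unadjusted p under 0.05, 1 member was higher, Map1lc3a, where 6.82% of all genes were. The 6 members lower at that level were Atg9a, Pik3c3, Atg2b, Becn1, Ambra1 and Nbr1, where 10% of all genes were lower. With the related test on rebuilt reads (voomWithQualityWeights) 0 members and 0.231% of all genes were called. At an unadjusted p under 0.05, 3 members were then higher (6.62% of all genes) and 2 lower (3.8%). Without sample weights 0 members and 0.0318% of all genes were called, and at an unadjusted p under 0.05, 1 member was higher (2.51% of all genes) and 0 were lower (2.27%). The members' log2 fold changes had a median of -0.10 beside -0.04 over all genes, and 34 of the 42 were below 0, as were 61.6% of all genes. With TMM scaling (trimmed mean of M values, which sets the bulk of genes equal) the median was -0.06 beside -0.0021, and 29 of 42 members and 50.7% of all genes were below 0.

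The differences were bounded by their errors. The 95% interval of the fold change stayed within 1.5-fold in either direction for 41 of the 42 genes and within 1.2-fold for 12 of them, and the exception at 1.5-fold was Atg9a. These intervals rest on the sample weights, which were 7.19 for Cre- replicate 1 and 0.181 to 1.52 for the other Cre- libraries. Their median half-width was 0.19 on the log2 scale, and 0.31 without weights. The counts within 1.5-fold and 1.2-fold therefore hold for the weighted fit only, in which 1 Cre- mouse counts most. In the same weighted fit, the log2 fold change was smaller than 0.25 in size for 39 genes. Without sample weights, Atg4d (-0.58), Atg2a (-0.35), Ambra1 (-0.28), Ulk1 (-0.27) and Tfe3 (-0.27) came to exceed that size, and Becn1 (-0.21) no longer did. The groups overlapped for all 42 members, whereas 0.62% of all genes were higher and 0.382% lower without overlap. An exact permutation test of each mean log2 level (two-sided), whose smallest possible p over 252 splits is 0.00794, gave p under 0.05 for 2 members, Wipi1 and Map1lc3a. This test was not run over all genes, so no background share stands beside that count. Its p values, here and below, are unadjusted for the number of genes.

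**Figure D1:**
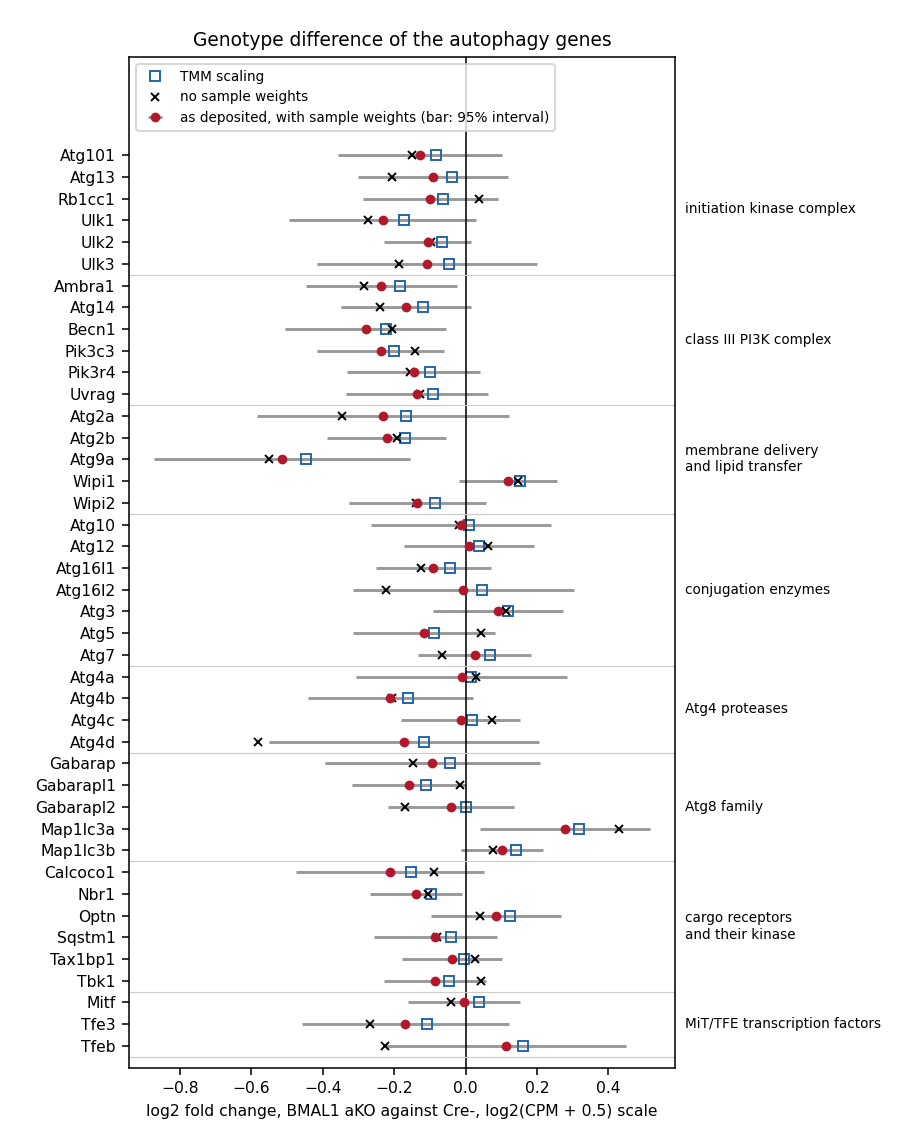
Log2 fold change of each autophagy gene between BMAL1 aKO and Cre- cortex (x axis, log2(CPM + 0.5) scale), grouped by step. Red points are the fit with sample weights and grey bars its 95% intervals (n = 5 libraries per group), open squares the same fit with TMM scaling and crosses the fit without sample weights. Atg9a lies farthest to the left at -0.51 among the red points, Map1lc3a farthest to the right at 0.28, and most intervals include 0.

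BMAL1 aKO replicate 3 decided the calls of 2 members. Without BMAL1 aKO replicate 3, Atg9a (log2 difference -0.65 ± 0.182 SE, limma adjusted p = 0.0850) and Atg2b (-0.30 ± 0.0814 SE, adjusted p = 0.0793) were called lower. Calls over all genes then rose from 42 to 844 of 12572 (6.71%), with 4.02% of genes lower and 2.7% higher, so that 2 of 42 members stood beside a background of 4.02%. When the 9 libraries were also corrected for transcript GC content, calls over all genes went to 143 (1.14%) and 0 members were called. Atg9a then had a log2 difference of -0.52 ± 0.132 SE (limma adjusted p = 0.107) and Atg2b one of -0.24 ± 0.0709 SE (adjusted p = 0.134). Leaving out that library also changed the balance of the sexes. In each group 2 of 5 libraries held Xist, which female cells make from their silenced X chromosome, at 986.5 to 1089 CPM and the others held it at 1.42 CPM or less, so that 2 of 4 BMAL1 aKO libraries then stood against 2 of 5 Cre- libraries. The weighted fit was not balanced for sex even with all 10 libraries and equal counts. Its log2 difference was 2.69 for Xist (limma adjusted p = 0.476) and -1.74 for the Y-linked Ddx3y (adjusted p = 0.515). Without BMAL1 aKO replicate 3 these differences were 4.35 and -2.88. The part of sex in the calls of either fit was not tested.

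The initiation kinase complex joins the kinase ULK1 or its relative ULK2 to ATG13, ATG101 and the scaffold FIP200, which Rb1cc1 encodes. All 6 genes had log2 fold changes below 0, with a median of -0.11, and 0 of 6 had an unadjusted p under 0.05. Ulk1 stood at 79.1, 53.3, 121, 99.4 and 71.5 CPM in Cre- replicates 1 to 5. In BMAL1 aKO replicates 1 to 5 it stood at 73.7, 80.6, 75.2, 58.2 and 53.5 CPM. All BMAL1 aKO libraries lay within the range of the Cre- libraries, which was set by Cre- replicates 2 and 3. The log2 fold change of Ulk1 was -0.23 ± 0.12 SE (limma adjusted p = 0.345). Ulk2 varied little, at 96.8 to 120 CPM in Cre- and 96.6 to 109 CPM in BMAL1 aKO libraries (log2 difference -0.11 ± 0.0565 SE, limma adjusted p = 0.351). Rb1cc1 was at 106 to 190 CPM and 139 to 184 CPM, and was unlike the others in that its lowest library of all 10 was Cre- replicate 3. Its log2 fold change was -0.10 with sample weights and 0.04 without them. Ulk3 (10.7 to 24.97 against 11.4 to 19.2 CPM), Atg13 (50.8 to 97.2 against 48.5 to 64.7 CPM) and Atg101 (8.33 to 17.9 against 10.2 to 13.4 CPM) had a wider spread among Cre- than among BMAL1 aKO libraries.

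The class III PI3K complex holds the lipid kinase VPS34 (Pik3c3), its regulatory subunit VPS15 (Pik3r4), Beclin 1 (Becn1), and ATG14 or UVRAG as alternative subunits that direct it to autophagosomes or endosomes, and AMBRA1 binds Beclin 1. All 6 genes had log2 fold changes below 0 with a median of -0.20, or -0.15 with TMM scaling, and 3 of them had an unadjusted p under 0.05. Without BMAL1 aKO replicate 3, all 6 had an unadjusted p under 0.05 and were lower, where 14.3% of all genes were lower and 8.47% higher, and 0 of 6 passed the adjusted threshold. With GC correction of the same 9 libraries, 3 of 6 were lower at the unadjusted level. With GC correction of all 10 libraries 1 of 6 was lower, beside 6.33% of all genes. It was 0 of 6 without sample weights (2.27% of all genes) and 0 of 6 with voomWithQualityWeights (3.8%). Pik3c3 stood at 53.9, 45.7, 45.9, 44.2 and 45.5 CPM in the Cre- replicates 1 to 5. In BMAL1 aKO replicates it was at 39.3, 38.1, 47.8, 42.5 and 45.5 CPM. Cre- replicate 1 was the highest of the 10 libraries and also the one with the largest sample weight in the fit, and the others overlapped. The log2 fold change of Pik3c3 was -0.24 ± 0.0827 SE (limma adjusted p = 0.198; exact permutation p = 0.143), and -0.06 without Cre- replicate 1 (limma adjusted p = 0.944).

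Becn1 was at 43.2, 28.2, 51.5, 46.7 and 39.7 CPM in Cre- replicates and 42.7, 39.6, 36.7, 29.6 and 30.8 CPM in the BMAL1 aKO replicates. Its lowest library was Cre- replicate 2 and its highest Cre- replicate 3. The log2 fold change was -0.28 ± 0.105 SE (limma adjusted p = 0.221). The kit used does not mark strand. Reads over the 43.9% of Becn1 exon bases that are shared with Cntd1 on the other strand therefore cannot be told apart by gene. Such overlaps touch 13 of the 42 members, among them Uvrag with Gm45187 (17.6% of exon bases) and Sqstm1 with Mrnip (17.3%). Ambra1 was at 63.6, 43.8, 97.2, 78.8 and 58.4 CPM in Cre- and 58.7, 59.3, 55.7, 47.7 and 49.9 CPM in the BMAL1 aKO replicates. The BMAL1 aKO libraries lay close together and inside the Cre- range (log2 difference -0.24 ± 0.0978 SE, limma adjusted p = 0.256). Atg14, whose promoter window is printed above, was at 14.3, 12.7, 20.7, 14.9 and 14.1 CPM in Cre- and 13.1, 13.9, 13.9, 11.4 and 11.6 CPM in the BMAL1 aKO replicates. Cre- replicate 3 stood well above the other libraries (log2 difference -0.17 ± 0.0848 SE, limma adjusted p = 0.333). Pik3r4 (32.2 to 55.6 against 34.6 to 42.6 CPM) and Uvrag (24.3 to 28.4 against 21.01 to 28.6 CPM) overlapped between the groups.

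Membrane delivery held the member with the largest fitted difference under sample weights. Atg9a encodes a lipid scramblase carried on vesicles that seed the autophagosome, and lies on chromosome 1 from 75180860 to 75192196 on the minus strand (GRCm38), with 15 merged exons. It stood at 40.9, 22.3, 77.6, 54.1 and 31.8 CPM in the Cre- replicates 1 to 5, a mean of 45.3 ± 21.5 (SD, n = 5). In BMAL1 aKO replicates 1 to 5 it was at 35.5, 32.7, 31.8, 22.0 and 21.8 CPM, a mean of 28.7 ± 6.42 (SD, n = 5). The 2 highest libraries were Cre- replicates 3 and 4, while Cre- replicate 2 stood with the lowest BMAL1 aKO libraries. The fold change was 0.70 (95% interval 0.55 to 0.90), which is -0.51 on the log2 scale with a standard error of 0.166 and an adjusted p of 0.183 in limma, and the exact permutation p was 0.135.

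Atg2b, which with Atg2a encodes a lipid transfer protein that fills the growing membrane, was at 76.8, 59.3, 87.1, 76.6 and 75.3 CPM in Cre- and 66.3, 70.3, 71.5, 55.9 and 62.8 CPM in the BMAL1 aKO replicates. All BMAL1 aKO libraries were below 4 of the 5 Cre- libraries, and Cre- replicate 2 was the exception (log2 difference -0.22 ± 0.0777 SE, limma adjusted p = 0.200). Atg2a ran from 26.0 to 95.9 CPM in Cre- and from 31.1 to 50.6 CPM in BMAL1 aKO libraries (log2 difference -0.23 ± 0.164 SE, limma adjusted p = 0.474). The lipid-binding proteins that recruit the conjugation machinery differed in sign. Wipi1 was at 27.99 to 30.9 CPM in Cre- and at 30.6 to 35.9 CPM in BMAL1 aKO libraries, so that the groups shared the narrow stretch from 30.6 to 30.9 CPM, and its coefficient of variation in Cre- libraries (4.24%) was the lowest of the 42 genes. Its log2 fold change was 0.12 ± 0.0637 SE (limma adjusted p = 0.355) and its exact permutation p was 0.0238. Wipi2 was at 64.1 to 120 CPM and 74.2 to 97.6 CPM.

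**Figure D2:**
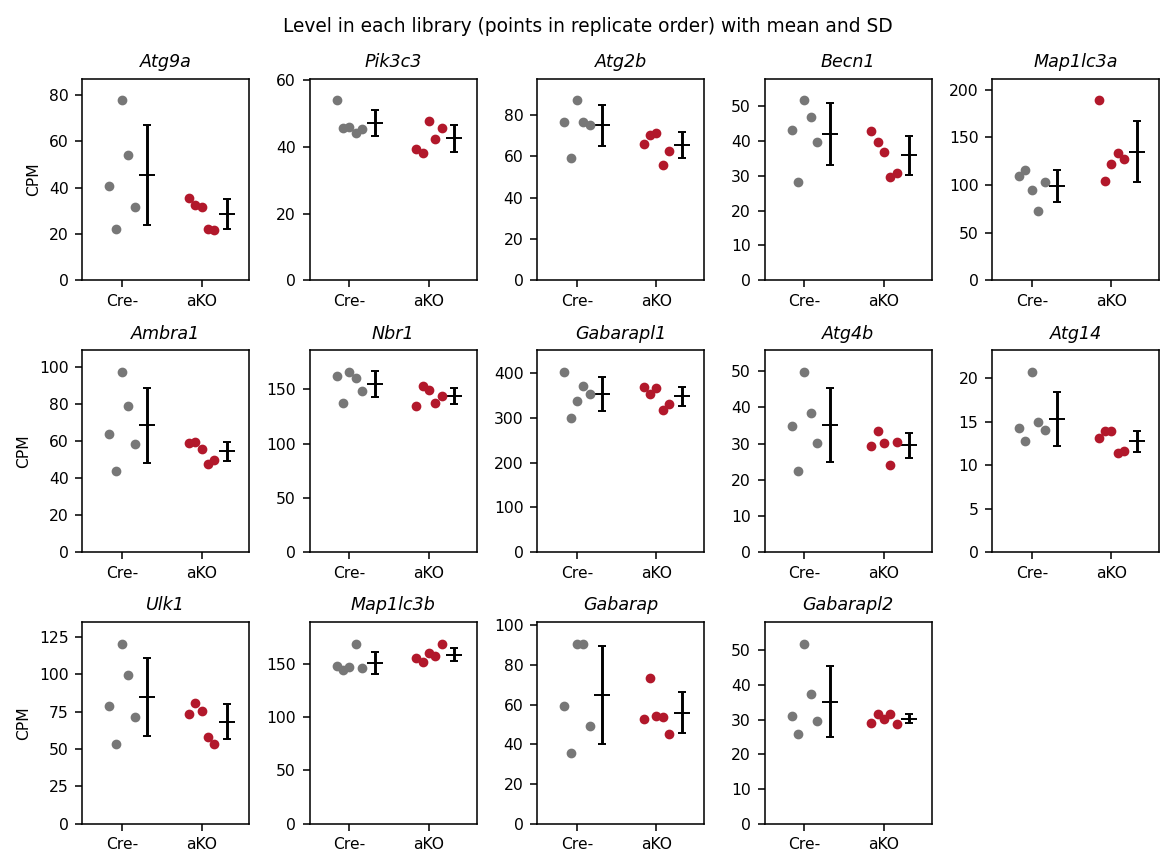
CPM in each library (y axis, from 0) of the 12 autophagy genes with the smallest unadjusted p and of the remaining ATG8 genes, with Cre- libraries in grey and BMAL1 aKO libraries in red, in replicate order from left to right within each group. Black bars are the mean and SD (n = 5). For Atg9a the Cre- libraries run from 22.3 to 77.6 CPM and the BMAL1 aKO libraries from 21.8 to 35.5 CPM, and in every panel the groups overlap.

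The conjugation enzymes had a median log2 fold change of -0.0068, 4 of 7 were below 0, and 0 of 7 had an unadjusted p under 0.05. With TMM scaling the median was 0.04 and 2 of 7 were below 0. The E-box windows of Atg7, Atg3 and Atg5 are printed above, and the groups overlapped for each. Atg7 was at 20.6 to 28.5 CPM in Cre- and 20.9 to 25.3 CPM in BMAL1 aKO libraries. Atg3 was at 33.6 to 54.2 and 39.0 to 51.8 CPM (log2 difference 0.09 ± 0.0845 SE, limma adjusted p = 0.598). Atg5 was at 14.1 to 20.8 and 16.2 to 19.99 CPM, with a log2 fold change of -0.12 with sample weights (adjusted p = 0.519) and 0.04 without them. Of the other conjugation genes, Atg10 (an E2-like enzyme that acts on ATG12) was at 5.41 to 7.51 and 4.32 to 7.88 CPM, and Atg12, the ubiquitin-like partner of ATG5, at 52.0 to 68.4 and 47.7 to 70.8 CPM. Atg16l1, which places the complex on the membrane, was at 41.6 to 69.9 and 45.8 to 54.1 CPM, and its relative Atg16l2 at 8.01 to 20.4 and 7.88 to 13.9 CPM.

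The ATG4 proteases cut ATG8 proteins before conjugation and release them from membranes afterwards. Their 4 genes had a median log2 fold change of -0.09, and 0 of 4 had an unadjusted p under 0.05. Atg4b, the protease with the broadest activity, was at 34.7, 22.3, 49.8, 38.6 and 30.1 CPM in Cre- and 29.4, 33.4, 30.1, 24.2 and 30.3 CPM in the BMAL1 aKO replicates. The spread among Cre- libraries covered that of the BMAL1 aKO libraries (log2 difference -0.21 ± 0.107 SE, limma adjusted p = 0.333). Atg4d was the most variable of the 42 genes in Cre- cortex, with a coefficient of variation of 60.4%. It was at 5.82, 5.31, 18.6, 12.9 and 5.94 CPM in Cre- replicates and 6.23, 6.42, 5.99, 4.32 and 5.05 CPM in the BMAL1 aKO replicates. Cre- replicates 3 and 4 alone were above 6.42 CPM. Its log2 fold change was -0.17 ± 0.175 SE with sample weights (limma adjusted p = 0.623) and -0.58 without them (standard error 0.312, adjusted p = 0.803), and 19.3% of its exon bases are shared with Kri1 on the other strand. Atg4a (5.27 to 8.72 against 5.86 to 10.0 CPM) and Atg4c (31.9 to 52.0 against 41.6 to 51.6 CPM) overlapped.

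By their means, 2 genes of the ATG8 family, Gabarapl1 and Map1lc3a, were the most abundant members per length, followed by Sqstm1 (53.5 to 84.0 CPM per kb), whose range overlapped that of Map1lc3a. Divided by the merged length of the annotated exons, Gabarapl1 was at 149 to 200 CPM per kb over the 10 libraries and Map1lc3a at 61.9 to 160 CPM per kb. Gabarap followed at 19.4 to 49.2, Map1lc3b at 19.2 to 22.5 and Gabarapl2 at 11.1 to 22.3 CPM per kb, and these ranges overlapped between neighbours in that order, except that Gabarap did not reach Map1lc3a. Merged exons hold isoforms that cortex may not use, which lowers a level per length. The family's median log2 fold change was -0.04, 3 of 5 were below 0, and their summed level was 621 to 751 CPM in Cre- and 695 to 795 CPM in BMAL1 aKO libraries.

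Map1lc3a, which encodes LC3A, had the only positive difference at an unadjusted p under 0.05 (0.0258). It lies on chromosome 2 from 155276297 to 155278073 on the plus strand (GRCm38). It stood at 110, 116, 94.6, 73.1 and 104 CPM in the Cre- replicates 1 to 5, a mean of 99.4 ± 16.7 (SD, n = 5). In BMAL1 aKO replicates 1 to 5 it was at 189, 104, 122, 134 and 127 CPM, a mean of 135 ± 31.9 (SD, n = 5). BMAL1 aKO replicate 1 was far above the rest, 3 more BMAL1 aKO libraries were above all Cre- libraries, and BMAL1 aKO replicate 2 lay among them. The fold change was 1.21 (95% interval 1.03 to 1.43), which is 0.28 on the log2 scale with a standard error of 0.110 and an adjusted p of 0.244 in limma, and the exact permutation p was 0.0317. Without sample weights the log2 fold change was 0.43 (adjusted p = 0.803).

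Map1lc3b, which encodes the LC3B protein that is the usual marker of autophagosomes, was at 148, 144, 147, 169 and 147 CPM in Cre- and 156, 152, 160, 158 and 169 CPM in the BMAL1 aKO replicates. Every BMAL1 aKO library was above 4 of the 5 Cre- libraries, and Cre- replicate 4 was the exception (log2 difference 0.10 ± 0.0537 SE, limma adjusted p = 0.347). Gabarapl1 was at 403, 300.0, 339, 371 and 354 CPM in Cre- and 369, 353, 367, 319 and 332 CPM in the BMAL1 aKO replicates, with the BMAL1 aKO libraries inside the Cre- range. Its log2 fold change was -0.16 ± 0.0739 SE with sample weights (limma adjusted p = 0.297) and -0.02 without them, and 28.3% of its exon bases are shared with 1700101I11Rik on the other strand. Gabarap was at 59.2, 35.8, 90.3, 90.8 and 49.0 CPM in Cre- and 52.6, 73.4, 54.5, 53.7 and 45.4 CPM in the BMAL1 aKO replicates (log2 difference -0.09 ± 0.140 SE, limma adjusted p = 0.752). Gabarapl2 was at 31.0, 25.7, 51.9, 37.2 and 29.7 CPM in Cre- and within 28.8 to 31.6 CPM in the BMAL1 aKO replicates (29.2, 31.6, 30.2, 31.5 and 28.8 CPM), with a log2 fold change of -0.04 ± 0.0814 SE (limma adjusted p = 0.817). For both genes the Cre- libraries spread on either side of the BMAL1 aKO libraries.

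Cargo receptors tie ubiquitinated proteins and organelles to ATG8 proteins, and TBK1 phosphorylates several of them. Their 6 genes had a median log2 fold change of -0.09, with 5 of 6 below 0 and 1 of 6, Nbr1, lower at an unadjusted p under 0.05. Nbr1 was at 162, 138, 166, 161 and 148 CPM in Cre- and 135, 153, 149, 138 and 144 CPM in the BMAL1 aKO replicates. Cre- replicates 1, 3 and 4 were above all BMAL1 aKO libraries and Cre- replicate 2 lay near the bottom (log2 difference -0.14 ± 0.0595 SE, limma adjusted p = 0.267). Sqstm1, which encodes p62, a receptor that is itself degraded by autophagy, was at 180 to 282 CPM in Cre- and 202 to 244 CPM in BMAL1 aKO libraries. Its log2 fold change was -0.09 ± 0.0797 SE (limma adjusted p = 0.592). Calcoco1, a receptor for the endoplasmic reticulum, was at 53.5 to 103 and 57.5 to 92.0 CPM (log2 difference -0.21 ± 0.122 SE, limma adjusted p = 0.382). Optn, a receptor in mitophagy, was at 16.4 to 20.8 and 17.2 to 20.02 CPM (log2 difference 0.08 ± 0.0847 SE, limma adjusted p = 0.618). Tax1bp1 was at 141 to 194 and 151 to 184 CPM, and Tbk1 at 45.4 to 62.7 and 53.8 to 61.6 CPM.

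The MiT/TFE factors were among the less abundant members per length. Tfeb, the best known regulator of lysosomal and autophagy genes, was at 4.16, 4.03, 10.1, 9.36 and 4.42 CPM in Cre- and 6.11, 5.10, 4.86, 4.58 and 4.41 CPM in the BMAL1 aKO replicates. Cre- replicates 3 and 4 were the 2 highest libraries, and the other Cre- libraries were near or below the BMAL1 aKO libraries. The sign of its log2 fold change depended on the weights of the libraries: 0.11 with them (standard error 0.156, adjusted p = 0.734, limma) and -0.23 without them (adjusted p = 0.806). Tfe3 was at 22.6 to 53.0 CPM in Cre- and 21.9 to 34.8 CPM in BMAL1 aKO libraries (log2 difference -0.17 ± 0.134 SE, limma adjusted p = 0.524). Mitf was at 11.01 to 13.4 and 10.4 to 11.98 CPM.

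**Figure D3:**
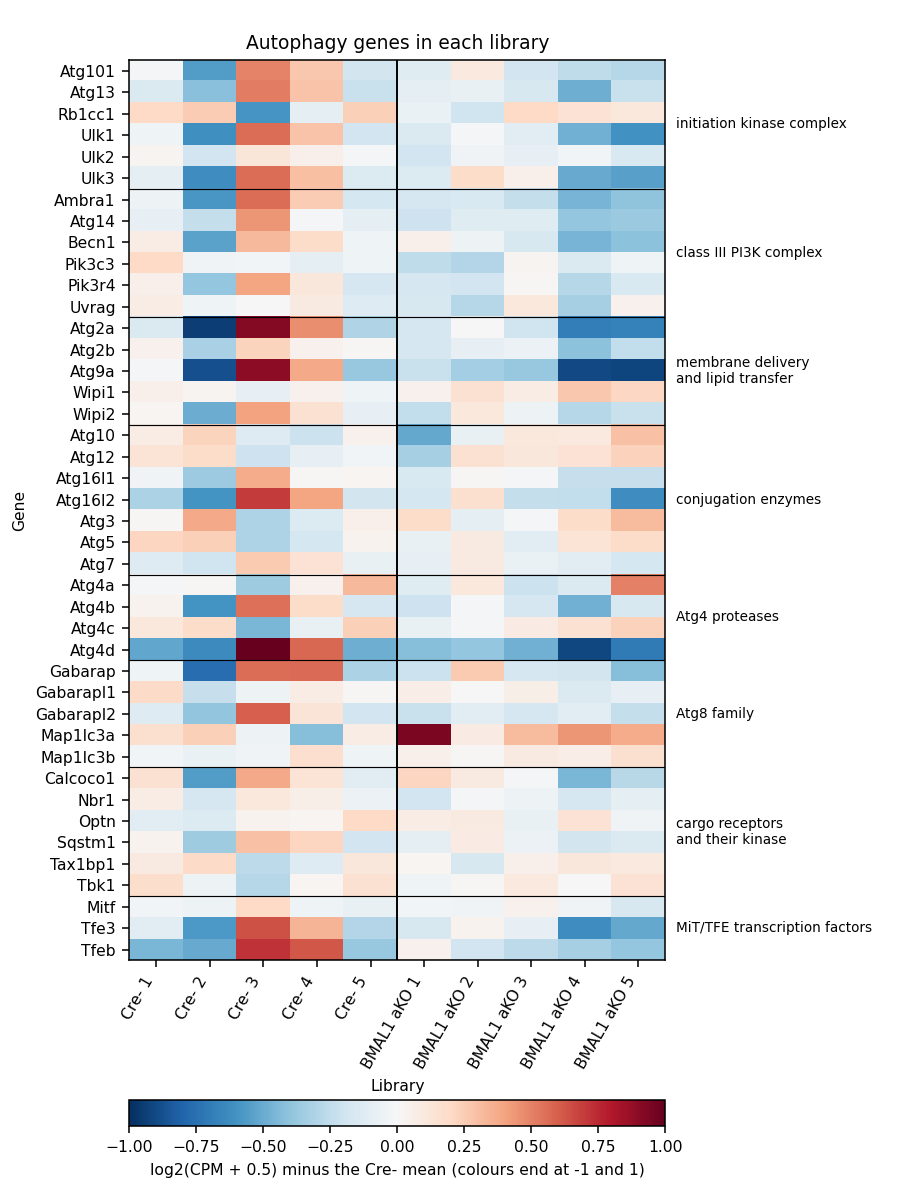
Level of each autophagy gene (rows, grouped by step) in each library (columns) as log2(CPM + 0.5) minus the mean of the Cre- libraries, from blue (lower) to red (higher). The strongest contrasts lie between Cre- replicates 2 and 3, and BMAL1 aKO libraries are paler and more alike, as in the initiation kinase complex, whose median deviation was -0.49 in Cre- replicate 2 and 0.50 in Cre- replicate 3.

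The coefficient of variation of CPM had a median of 18.5% over the 42 genes in Cre- (4.24 to 60.4%) and of 11.1% in BMAL1 aKO libraries (3.82 to 23.7%), beside medians of 17.8% and 12.2% over all genes, and was lower in BMAL1 aKO for 35 of the 42, as it was for 74.7% of all genes. Cre- replicate 3 was the highest of the 10 libraries for 25 of the 42 members (59.5%, and 39.9% of all genes), and Cre- replicate 2 was the lowest for 19 (45.2%, and 28.3% of all genes). The steps did not move as one in these libraries. In Cre- replicate 3 the median deviation from the Cre- mean was 0.50 on the log2 scale for the initiation complex, 0.40 for membrane delivery and 0.64 for the MiT/TFE factors, but -0.13 for the conjugation enzymes. In Cre- replicate 2 the same steps were at -0.49, -0.49, -0.50 and 0.19. Mitochondrially encoded transcripts took 6.19% of reads in Cre- replicate 3 and 19.9% in Cre- replicate 2, against 14.5 to 17.96% in BMAL1 aKO libraries, and the part of this share in the results was not tested.

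The deviation of Cre- replicate 3 was set beside the base composition of the transcripts. Across the 42 genes, the deviation of Cre- replicate 3 from the other Cre- libraries had a Pearson correlation of 0.651 with the GC content of the longest coding transcript, beside 0.61 across all genes with a GC value. These points are genes of the same libraries and not independent replicates. Of the 21 members with the higher GC content (50.8 to 63.2%), 17 were above the mean of the other Cre- libraries in Cre- replicate 3, with a median deviation of 0.62. Of the 21 with the lower GC content (39.1 to 50.8%), 11 were above that mean, with a median of 0.0022. Of the members with the higher GC content, 4 were below that mean on the log2 scale. They were Map1lc3a (63.1% GC, -0.07), Map1lc3b (55.2%, -0.05), Gabarapl1 (52.7%, -0.07) and Wipi1 (51.7%, -0.11). Atg4d deviated by 1.34 and Rb1cc1, at 39.1% GC, by -0.73, while Gabarapl2, at 45.3% GC, deviated by 0.75.

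After each library's trend on GC content was subtracted, the median SD of the members among Cre- libraries was 0.168 in place of 0.268 on the log2 scale, and 0.122 in place of 0.157 among BMAL1 aKO libraries. The SD among Cre- libraries was lower for 32 of the 42. The trends were fitted to these same libraries, so a smaller SD is not an independent result, and the corrected SD was not taken over all genes. Again 0 of 42 members were called, beside 0.239% of all genes, and 0 members were higher at an unadjusted p under 0.05, beside 7.23% of all genes. At that level 6.33% of all genes and 4 members were lower: Atg9a (log2 difference -0.43 ± 0.126 SE, limma adjusted p = 0.302), Ambra1 (-0.18), Atg2b (-0.18) and Ulk1 (-0.16). Map1lc3a was at 0.38 with a standard error of 0.208 (adjusted p = 0.420) and its own SD among Cre- libraries was larger after the correction (0.70) than before it (0.26). The members' median log2 fold change was -0.05 beside -0.0023 over all genes.

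**Figure D4:**
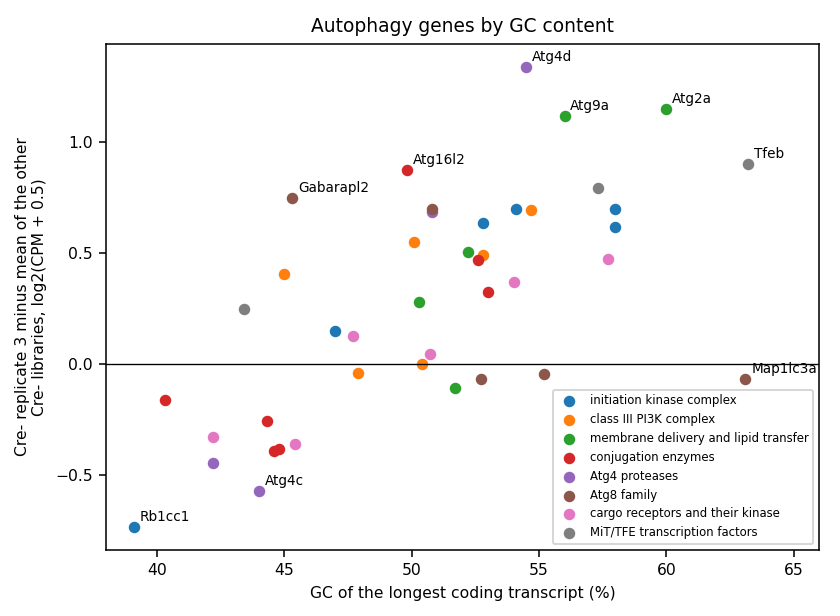
Each point is an autophagy gene, coloured by step. The x axis is the GC content of its longest coding transcript in percent and the y axis the log2(CPM + 0.5) of Cre- replicate 3 minus the mean of the other Cre- libraries. Points rise from Rb1cc1 at -0.73 to Atg4d at 1.34, and Map1lc3a at 63.1% GC lies near 0.

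Of 69 other genes named for neighbouring parts of the pathway, 65 were measured and 0 were called. Their median log2 fold change was -0.08, beside -0.04 over all genes. At an unadjusted p under 0.05 there was 1 higher and 13 lower, where 6.82% of all genes were higher and 10% lower. Among 14 further phagophore and complex genes 0 were higher and 4 lower at that level, and the 2 with the smallest p were Wdfy3, an adaptor for aggregates (-0.21, adjusted p = 0.196, limma), and Tollip (-0.28, adjusted p = 0.212). Among 13 autophagosome fusion genes 1 was higher and 3 were lower, led by Vamp8, a SNARE protein (0.34, adjusted p = 0.256), and Vps33a, a tethering subunit (-0.16, adjusted p = 0.273). Among 12 mitophagy and ER-phagy genes 0 were higher and 1 lower, and the smallest p belonged to Retreg1, a receptor for the endoplasmic reticulum (-0.20, adjusted p = 0.258), and Ncoa4, the receptor for ferritin (-0.20, adjusted p = 0.343). These counts are from the weighted fit. Without sample weights 0 of the 65 were higher and 1 lower, where 2.51% and 2.27% of all genes were. With voomWithQualityWeights 2 were higher and 3 lower, where 6.62% and 3.8% of all genes were. With GC correction 1 was higher and 8 were lower, where 7.23% and 6.33% of all genes were.

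mTORC1 and AMPK are the nutrient-sensing kinases upstream of the ULK complex. Among their 21 genes 0 were called, with a median of -0.11. At an unadjusted p under 0.05, 0 were higher and 5 lower, where 6.82% of all genes were higher and 10% lower. With GC correction 0 were higher and 4 lower (7.23% and 6.33% of all genes). With voomWithQualityWeights 1 was higher and 1 lower (6.62% and 3.8%), and without sample weights 0 and 0 (2.51% and 2.27%). Prkaa2, a catalytic subunit of AMPK, was at 50.3 to 70.1 CPM in Cre- and 49.0 to 65.2 CPM in BMAL1 aKO libraries. Its log2 difference in the weighted fit of uncorrected values was -0.27 ± 0.0859 SE (limma adjusted p = 0.183). Rraga, a GTPase that brings mTORC1 to lysosomes, was at 48.1 to 57.5 CPM in Cre- and 44.9 to 47.8 CPM in BMAL1 aKO libraries without overlap (log2 difference -0.18 ± 0.0570 SE, limma adjusted p = 0.183). Its exact permutation p was 0.00794, the smallest that the design allows and unadjusted for the number of genes. Of 5 other transcription factors of autophagy genes 0 had an unadjusted p under 0.05, and the smallest p belonged to Nfe2l2 (0.16, adjusted p = 0.367) and Atf4 (0.20, adjusted p = 0.426). Without BMAL1 aKO replicate 3, where 4.02% of all genes were called lower, 4 of the 65 genes were: Prkaa2 (-0.35, adjusted p = 0.0616, limma), Depdc5, an mTORC1 inhibitor (-0.31, adjusted p = 0.0688), Tollip (-0.39, adjusted p = 0.0759) and Wdfy3 (-0.26, adjusted p = 0.0851). Depdc5 is named here because it is among these 4. With GC correction of the same 9 libraries, 0 of the 65 were called (smallest adjusted p = 0.104).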

How the data were processed

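Cortical RNA was made into cDNA with the SMARTer Ultra Low kit and sequenced, 1 library per mouse. The values are CPM per gene, deposited by the authors after alignment with STAR 2.5.1a and counting with featureCounts 1.4.6-p5 on GRCm38 (submitters' processing notes). The methods also name TMM factors and the removal of ribosomal genes. The deposited CPM sum to 991186 to 992702 in every library, so they carry no TMM factor. Dividing CPM by the step between neighbouring values gave whole reads (to 0.01 read) and the total of each library, and the depth limits precision less than the spread between libraries. Replicates are separate mice by the labels. The members and all gene lists were chosen with earlier results of these data known.

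The filter was more than 1 CPM in 4 or more libraries (12573 of 12575 genes). Values were taken as log2(CPM + 0.5), so fold changes of low genes are understated, and fitted with limma 3.58.1 (arrayWeights sample weights, eBayes with trend, no covariates) in R 4.3.3, with Benjamini-Hochberg adjustment over all genes and a threshold of 0.1. The study's methods used voomWithQualityWeights, which was run as an alternative on rebuilt reads. Exact permutation tests of single genes were two-sided. The fit was tested on simulated data that held no differences in quality between libraries, which does not test the uneven sample weights found here. Values in every library are given for members past the threshold, the 12 with the smallest unadjusted p and the ATG8 family. Of each further list, genes past the threshold or else the 2 with the smallest p are named. Other members are given by range, 12 of them with a fold change and 2 of these, Atg4d and Tfeb, also with values in every library, which were chosen after their values were seen. Exons, GC content and neighbours came from GENCODE M21 (GRCm38), and GC was known for 99.8% of tested genes. Same-numbered replicates were checked for pairing and did not deviate together (r from -0.625 to 0.364 over 5 pairs), so no block was used. Alternatives were other scalings, pseudocounts, filters, no weights, a replicate block, a threshold of 0.05 and each library left out. Fits with GC correction, and TMM scaling without weights, were chosen after seeing the data. Python 3.11.15 with pandas 2.3.3, NumPy 2.4.6 and matplotlib 3.10.9 was used for counts and figures.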

Additional observations from a re-analysis of the deposited data

Results flagged for a closer look

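In 5 of 84 groups of 5 libraries, the highest or lowest library of an autophagy gene stood apart from the rest by Dixon's test, where chance gives about 1 in 20. Atg14 was at 20.7 CPM in Cre- replicate 3, with the other Cre- libraries at 12.7 to 14.9 CPM. Mitf was at 13.4 CPM in the same library, with the others at 11.01 to 11.4 CPM. Map1lc3b was at 169.2 CPM in Cre- replicate 4, with the others at 144.0 to 148.2 CPM. Pik3c3 was at 53.9 CPM in Cre- replicate 1, with the others at 44.2 to 45.9 CPM. Atg12 was at 47.7 CPM in BMAL1 aKO replicate 1, with the others at 65.2 to 70.8 CPM.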

How the results depend on the processing

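No autophagy gene was called higher in any of the 26 alternatives run, and 2 were called lower in 1 of them, without BMAL1 aKO replicate 3. With each library left out in turn, the count of autophagy genes called lower ran from 0 to 2. Counts called over all genes, 42 as reported, were 68 with TMM scaling, 65 with quantile normalization, 4 without sample weights, 20 at a threshold of 0.05 and 7 with the replicate block. They were 4 with TMM scaling and no sample weights, 8 with GC correction and no sample weights, 6 with GC correction and the replicate block and 143 with GC correction without BMAL1 aKO replicate 3. They ran from 1 (without Cre- replicate 1) to 844 (without BMAL1 aKO replicate 3) with 1 library left out. The members' median ran from -0.147 to -0.058 with 1 library left out and from -0.147 to -0.0522 over all alternatives. With the replicate block, 0 members were called and their median was -0.11; the numbers did not pair the libraries, and 1 Cre- library correlated best with the BMAL1 aKO library of its number. Of the 26 members given with a fold change, the sign turned in the following cases, with 0 of them called in either fit. Without weights, Tfeb was -0.226, Rb1cc1 0.0362 and Atg5 0.0428. With the replicate block, Optn was -0.0669, Tfeb -0.0726 and Atg5 0.0642. With TMM scaling and no weights, Gabarapl1 was 0.0341, Tfeb -0.178, Rb1cc1 0.0871 and Atg5 0.0921. With GC correction and no weights, Gabarapl1 was 0.0669, Calcoco1 0.0521, Sqstm1 0.02, Tfeb -0.0789, Rb1cc1 0.0188 and Atg5 0.0507. With GC correction and the replicate block, Gabarapl1 was 0.0239, Sqstm1 0.00738, Tfeb -0.00549, Rb1cc1 0.00337 and Atg5 0.0745, and Atg5 was 0.0334 with GC correction without BMAL1 aKO replicate 3. With 1 library left out, Optn ran from -0.0796 to 0.123, Sqstm1 from -0.146 to 0.0154, Tfeb from -0.127 to 0.159, Atg5 from -0.176 to 0.0414 and Gabarap from -0.237 to 0.0259. Pik3c3 (-0.24) kept its sign but was -0.0574 without Cre- replicate 1 and -0.108 with the replicate block. The cause was not tested. Sample weights did not converge without Cre- replicate 1 or 5. edgeR and DESeq2 were planned and not run, since the deposited table holds CPM and was filtered at 1 CPM.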
